A study of Mus musculus with 2 samples.

Results

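The genes that make, take up, store and export cholesterol were examined in a genome-wide map of PPARγ binding in TH2 cells of the mouse, T cells that drive responses to worms and allergens. The gene group held 30 members, grouped by pathway role: 3 of efflux, 5 that control the SREBP factors, 15 enzymes of synthesis, 2 of lipoprotein uptake, 3 of intracellular transport and 2 of esterification. The genes and their roles were chosen with earlier results of these data known, so their share with a peak is a description. All 30 were found among 21851 protein-coding genes. A peak was assigned to a gene when a transcription start site (TSS) of that gene was the nearest protein-coding TSS to the peak centre and lay within 100 kb. By this rule 9 of the 2537 peaks in the deposited list belonged to 7 of the 30 genes.

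Naive CD4+ T cells of C57BL/6J mice were activated and polarised towards TH2 in culture, and retrovirus carrying Pparg with a TY1 tag was added on days 1 and 2. Chromatin from the transduced cells was taken on day 4. The ChIP group is 1 library made with an antibody against the TY1 tag, and the input group is 1 library from the same kind of transduced cells with no antibody. By the series text the experiment was repeated and 1 replicate was used. The map describes the introduced, retrovirally expressed receptor. A peak list measures no expression, so the TH2 label was not checked against marker genes. Of 10229438 mapped tags, 54617 (0.53%) fell inside peaks, a mean of 21.5 for each peak. With no replicate and no strength for single peaks, each peak counted once, nothing was tested, and the 95% intervals are exact binomial (Clopper-Pearson) and cover counting error only.

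Cells balance cholesterol through opposed sets of regulators. When sterols are scarce, SREBP factors leave the endoplasmic reticulum with their escort SCAP and switch on genes of synthesis and uptake; INSIG proteins hold them back when sterols are plentiful. When sterols accumulate, the liver X receptors (LXR), which pair with RXR as PPARγ does, switch on exporters such as Abca1 and Abcg1. In macrophages, PPARγ ligands are known to raise Abca1 through LXR. Activated T cells take up and make sterols as they divide. PPARγ and RXR together bind DR1, a direct repeat of the half-site AGGTCA with 1 base between the copies, and LXR and RXR bind DR4, the same repeat with 4 bases between.

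The sequences of the 4 peaks at Abca1 and Hsd17b7 are shown first, because they hold the 3 DR1 matches that lie nearest to a peak centre and the only far peaks of the group. Each line gives the whole 173 bp peak of the mm10 assembly on the plus strand. Capitals mark the best DR1 match inside the peak, with 1 mismatch at Hsd17b7, 2 at each of the peaks upstream of Abca1 and 3 in the Abca1 intron, out of 12 fixed bases.
Hsd17b7, chr1:169968561-169968733, 594 bp downstream of the TSS: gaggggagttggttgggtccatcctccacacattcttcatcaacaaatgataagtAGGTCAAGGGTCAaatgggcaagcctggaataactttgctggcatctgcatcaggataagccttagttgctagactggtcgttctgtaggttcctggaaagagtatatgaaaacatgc
Abca1, chr4:53218150-53218322, 58.3 kb upstream: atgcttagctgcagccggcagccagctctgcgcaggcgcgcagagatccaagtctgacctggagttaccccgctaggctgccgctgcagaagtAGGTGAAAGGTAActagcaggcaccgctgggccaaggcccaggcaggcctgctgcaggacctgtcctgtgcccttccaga
Abca1, chr4:53200793-53200965, 41.0 kb upstream: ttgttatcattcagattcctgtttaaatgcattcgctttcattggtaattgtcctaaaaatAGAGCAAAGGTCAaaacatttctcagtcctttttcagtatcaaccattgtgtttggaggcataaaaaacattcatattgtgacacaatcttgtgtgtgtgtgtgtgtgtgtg
Abca1, chr4:53114299-53114471, 45.5 kb downstream, in intron 5: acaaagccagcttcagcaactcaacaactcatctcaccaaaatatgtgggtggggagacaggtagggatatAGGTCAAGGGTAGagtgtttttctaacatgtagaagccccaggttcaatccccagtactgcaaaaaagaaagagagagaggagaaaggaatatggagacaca

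A larger share of these 30 sterol genes than of genes in general had a peak. The difference describes this chosen list, since 4 of 48 further sterol genes (8.33%) had a peak. Of the 30 genes 7 (23.3%, interval 9.93 to 42.3%) had 1 or more assigned peaks, while 7.68% of all protein-coding genes did. The 7 were Abca1, Hsd17b7, Sc5d, Dhcr7, Cyp51, Lrp8 and Soat1. Abca1 had 3 peaks and the other 6 genes 1 each. Genes differ in how much sequence lies nearest to their TSS, and this territory had a median of 63.0 kb for the 30 genes and 47.4 kb for all genes. Per Mb of territory there were 3.91 peaks at the 30 genes and 1.36 at all genes. Without Abca1 the density at the other 29 genes was 2.82 peaks per Mb. By size of territory, 3 of 8 members with a territory above 105 kb had a peak (13.7% of all genes of that size), 3 of 10 between 47.4 and 105 kb (9.85%), 1 of 8 between 22.4 and 47.4 kb (4.65%) and 0 of 4 below 22.4 kb (2.56%).

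**Figure D1:**
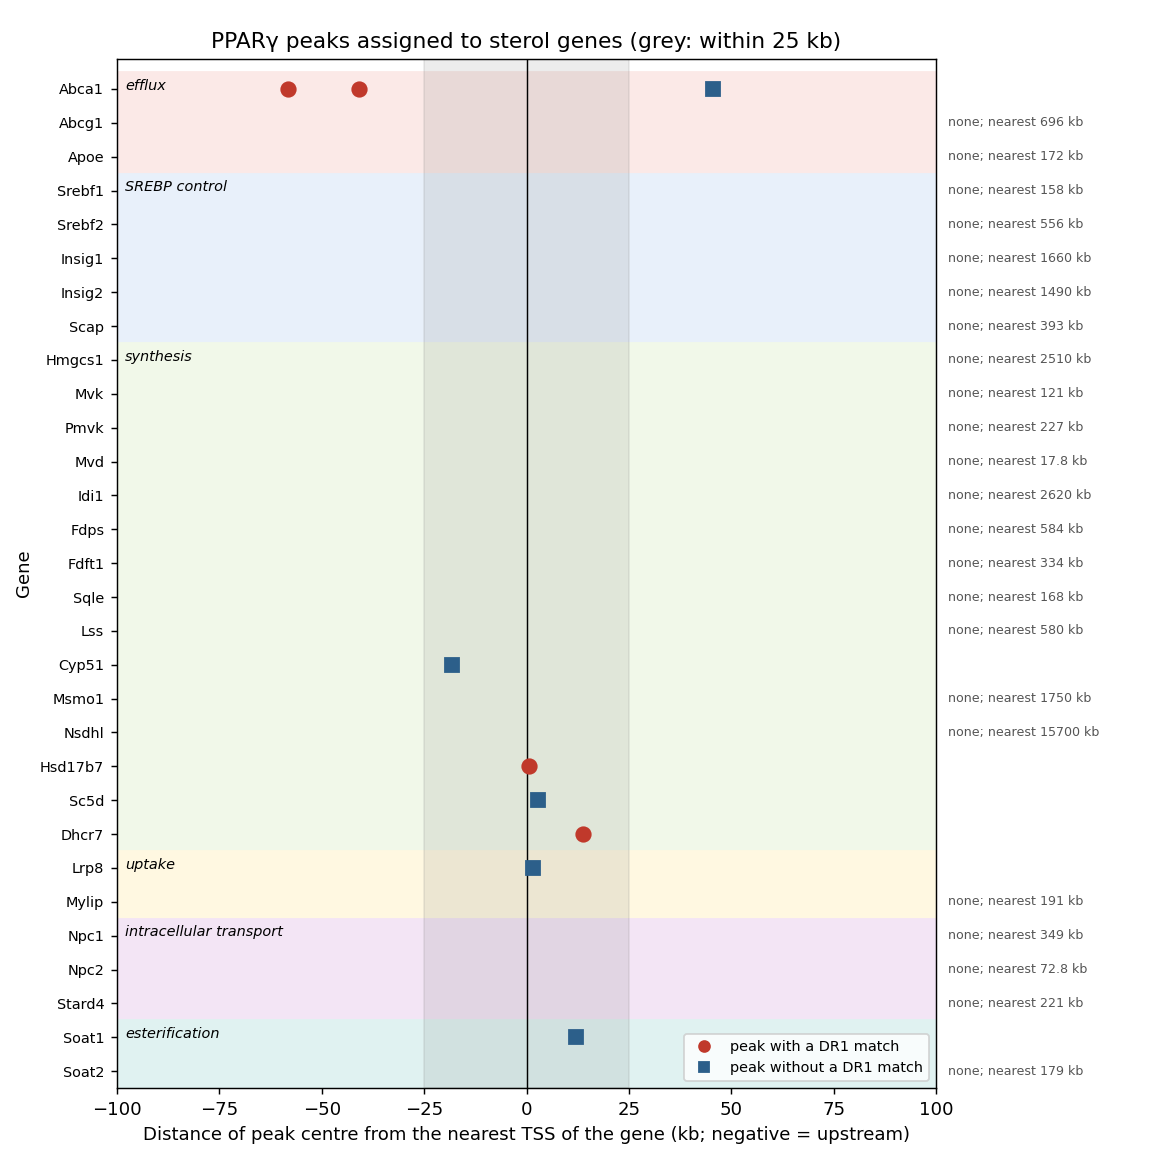
Each row is 1 of the 30 sterol genes, grouped by role, and each symbol is an assigned PPARγ peak at its distance in kb from the nearest TSS of the gene (negative is upstream; the grey band is within 25 kb). The 6 genes with a near peak have 1 each, the 3 far peaks all belong to Abca1, and the text at the right gives the distance to the nearest peak for each gene with none.

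The efflux group had its peaks at a single gene. Abca1, which encodes the exporter that loads cholesterol onto lipid-poor apolipoproteins, had 3 peaks, and 0.357% of all protein-coding genes had 3 or more. Its territory was 174 kb, beside a median of 47.4 kb for all genes, and that share was not matched for territory. Abcg1, the exporter to mature lipoprotein particles, had none, and the peak closest to it, 696 kb away, belonged to Cryaa. Apoe, the apolipoprotein that accepts effluxed cholesterol, had its nearest peak at 172 kb, assigned to Ceacam16. Thus 1 of 3 efflux genes had a peak (33.3%, interval 0.84 to 90.6%). Of the genes that switch this programme on, in a wider list, the LXR genes Nr1h2 and Nr1h3 and the RXR genes Rxra, Rxrb and Rxrg had 0 of 5 with a peak (interval up to 52.2%). That interval includes the 7.68% of all protein-coding genes, so this count does not set them apart. A called peak did lie 23.7 kb from a TSS of Rxrb, but it was assigned to H2-K1.

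All 3 Abca1 peaks were far from the gene's start. The upstream peaks were at 41.0 and 58.3 kb, 17.4 kb from each other, and the other lay 45.5 kb into the gene, in intron 5 of a transcript with 50 exons. The closest other protein-coding TSSs were those of Nipsnap3b and Slc44a1, at least 102 kb from each of the 3 centres. The peak at 58.3 kb fell in the promoter of 4930412L05Rik, a noncoding transcript whose TSS was 675 bp away, and its 200 bp window had a GC content of 61.5%. The peak at 41.0 kb was intergenic, with 35.5% GC, and its nearest TSS of any gene was also that of 4930412L05Rik, at 16.7 kb. The assignment of these upstream peaks to Abca1 thus rests on counting protein-coding genes alone. The intronic peak had 43.0% GC.

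Set beside efflux, with a peak at 1 of 3 genes, the synthesis group had peaks at 4 of 15 enzymes (26.7%, interval 7.79 to 55.1%). The intervals of both groups overlap over most of their range, and the share of all protein-coding genes was 7.68%. Abca1, the single efflux gene with a peak, had 3 peaks, at 41.0 to 58.3 kb, and the 4 synthesis genes had 1 each, at 0.594 to 18.2 kb. Scarb1, a lipoprotein receptor gene of the wider list that is grouped there with efflux, had 1 peak, at 7.19 kb, so the far peaks describe Abca1 and not efflux genes as a group. The 4 enzymes with a peak all act after squalene epoxidation, on the sterol ring, where 4 of 7 genes had a peak (57.1%, interval 18.4 to 90.1%). None of the 8 genes up to and including squalene epoxidation had one (0%, interval up to 36.9%). This division of the pathway was made after the peaks were seen, and the median territory was 78.4 kb for the 7 later genes and 40.3 kb for the 8 earlier ones.

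**Figure D2:**
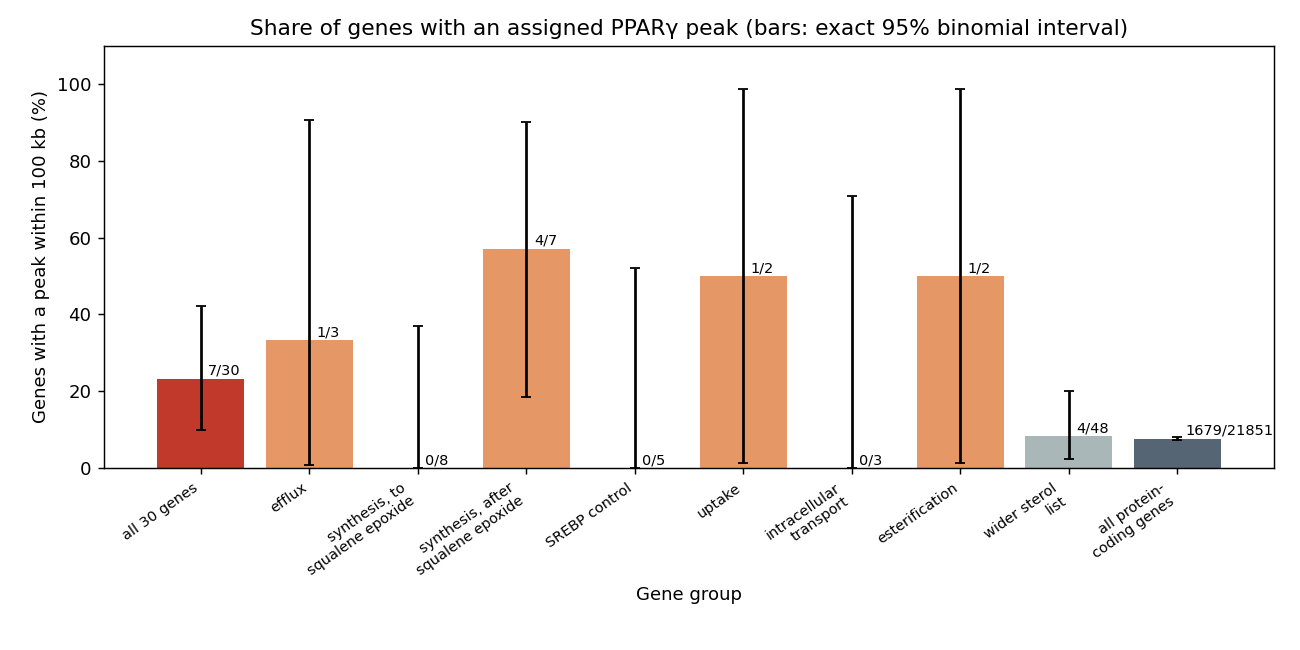
Bars give the percentage of genes with an assigned peak within 100 kb in each group, with the number of genes with a peak over the number of genes, and error bars are exact 95% binomial intervals. Roles of 2 to 8 genes have wide intervals, whereas the 1679 of 21851 protein-coding genes with a peak give 7.68%.

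Hsd17b7, the ketosteroid reductase that acts in removal of the ring methyl groups, had the closest peak of the 30 genes, 594 bp downstream of its TSS in intron 1. A share of 6.03% of the 2124 assigned peaks in the series were as close to a TSS. The peak also fell in the promoter of 3110045C21Rik, an antisense transcript whose TSS was 762 bp away. The nearest other peak was 1810 kb away. Its DR1 match had 1 mismatch, which 6.46% of all peaks reach or better, and its first half-site was intact. Sc5d, the sterol desaturase, had an intronic peak 2.83 kb downstream of its TSS. Dhcr7, the reductase of the last step, had a peak in intron 7, 13.8 kb downstream of the nearest TSS of a protein-coding transcript. Another Dhcr7 transcript in the comprehensive annotation starts 2685 bp from that peak. Cyp51, the lanosterol demethylase, had an intergenic peak 18.2 kb upstream, at chr5:4122874-4123046, with 32.5% GC and no other protein-coding TSS within 69.4 kb.

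The peaks at Dhcr7 and Sc5d lay in copies of the same repeat. Repeat-masked sequence covered 93.1% of the Dhcr7 peak and 89.6% of the Sc5d peak, and the median of all peaks was 11.6%. Both sequences are printed so that the copies can be compared. The Sc5d peak is on the minus strand, and capitals mark the 131 of 150 aligned bases that are identical (87.3%).
Dhcr7, chr7:143843933-143844105, plus strand: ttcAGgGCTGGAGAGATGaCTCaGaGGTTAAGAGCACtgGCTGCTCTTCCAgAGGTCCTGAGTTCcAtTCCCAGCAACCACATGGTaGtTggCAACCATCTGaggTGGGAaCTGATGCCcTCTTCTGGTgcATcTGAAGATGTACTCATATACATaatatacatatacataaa
Sc5d, chr9:42261283-42261455, minus strand: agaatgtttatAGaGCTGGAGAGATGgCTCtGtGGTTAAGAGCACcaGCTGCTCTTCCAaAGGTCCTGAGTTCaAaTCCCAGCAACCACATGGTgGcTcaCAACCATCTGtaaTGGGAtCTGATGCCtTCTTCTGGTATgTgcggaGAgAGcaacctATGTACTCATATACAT
Of the 36 pairs among the 9 peaks this was the pair with the highest alignment score, 198, and the next highest score was 36. With a score of 100 as the limit, 11 of 2537 peaks (0.434%) aligned to the Dhcr7 peak, as did 71 of 5074 windows 1 kb to either side of the peaks (1.40%). Aligned to the Sc5d peak were 15 peaks (0.591%) and 76 of these windows (1.5%). Only tags with a unique position were kept by the authors, and how this bears on peaks in repeats was not tested. Without peaks centred in repeats, 2 of the 15 synthesis genes kept a peak, Hsd17b7 and Cyp51.

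The earlier steps had no assigned peak. For Hmgcs1, which makes HMG-CoA, the nearest peak was 2510 kb away. The genes of mevalonate activation were Mvk, with its nearest peak at 121 kb, Pmvk at 227 kb and Mvd at 17.8 kb. The peak near Mvd lay 517 bp from a TSS of Snai3 and was assigned to that gene. For the isoprenoid genes Idi1 and Fdps the nearest peaks were at 2620 and 584 kb. Squalene synthase, encoded by Fdft1, and squalene epoxidase, encoded by Sqle, had their nearest peaks at 334 and 168 kb. Among the later steps, lanosterol synthase (Lss) had its nearest peak at 580 kb, Msmo1 at 1750 kb and the X-linked gene Nsdhl at 15700 kb.

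The SREBP control genes had 0 of 5 with a peak (interval up to 52.2%). For Srebf1 and Srebf2, the genes of the factors themselves, the nearest peaks were 158 and 556 kb away. For the escort Scap it was 393 kb, and for the retention factors Insig1 and Insig2 it was 1660 and 1490 kb. Across 0.483 Mb of territory these genes held no peak. At the density over all genes, 1.36 peaks per Mb, that territory would hold fewer than 1, so a lack of peaks here does not set the group apart.

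In uptake and storage 1 gene of each pair had a peak (50%, interval 1.26 to 98.7% for each pair). That interval includes the 7.68% of all protein-coding genes, so neither count sets its pair apart. Lrp8, a receptor of the LDL receptor family that binds apolipoprotein E and reelin, had a peak at chr4:107804011-107804183, in intron 2 and 1.68 kb downstream of its nearest TSS, in sequence of 60% GC with no masked repeat. Another Lrp8 transcript starts 846 bp from its centre. Mylip, the ubiquitin ligase that degrades receptors of this family, had its nearest peak at 191 kb, assigned to Gmpr. Soat1, the acyltransferase that makes cholesteryl esters in most tissues, had a peak at chr1:156454561-156454733, in intron 2, 12.2 kb downstream of its nearest TSS and 19.7 kb from the gene's most upstream start. That peak lay 643 bp from the TSS of Gm37648, an annotated transcript that has not been classed. Soat2, the acyltransferase of liver and intestine, had its nearest peak at 179 kb, assigned to Myg1.

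The intracellular transport genes had 0 of 3 with an assigned peak (interval up to 70.8%). Since that interval includes the 7.68% of all protein-coding genes, this count does not set the group apart. Npc1 and Npc2 encode the proteins that release cholesterol from lysosomes, and their nearest peaks were 349 and 72.8 kb away. The peak near Npc2 was 30.6 kb from Ltbp2 and was assigned to it. Stard4, a sterol carrier of the cytosol, had its nearest peak at 221 kb. Within 100 kb but outside the rule were thus Mvd and Npc2 alone. Just outside 100 kb lay Mvk at 121 kb and Srebf1 at 158 kb, and the farthest assigned peak was that of Abca1 at 58.3 kb, well inside the limit.

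**Figure D3:**
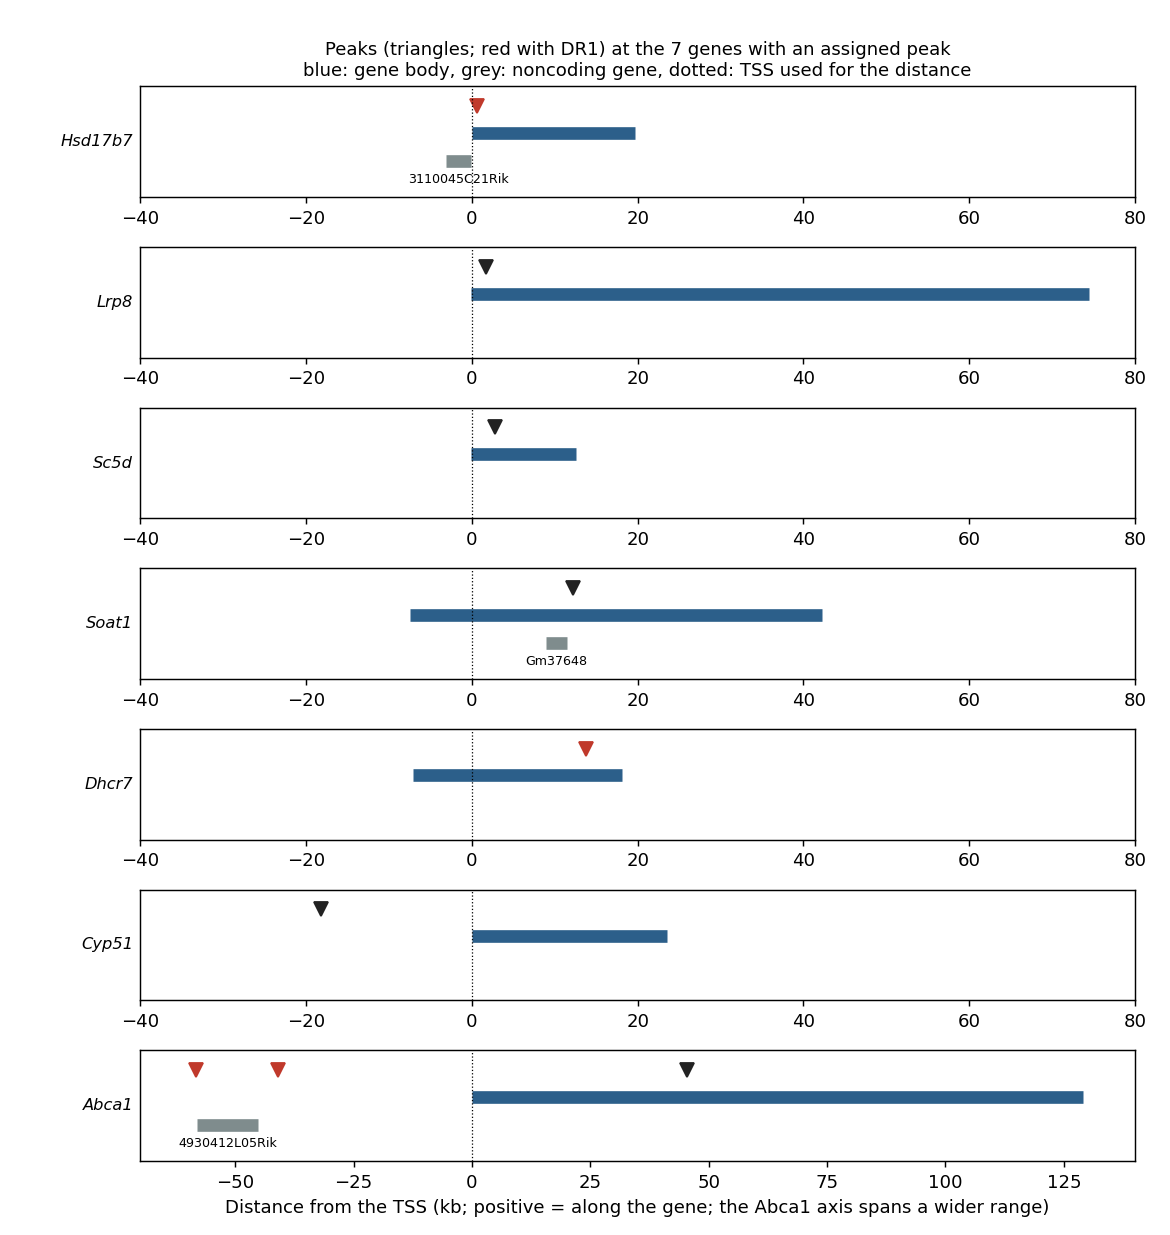
For each of the 7 genes with an assigned peak, the gene body is drawn in blue along the direction of transcription, as distance in kb from the TSS used for assignment, with noncoding genes in grey and peaks as triangles (red where a DR1 match is present). The Hsd17b7, Lrp8 and Sc5d peaks sit within 3 kb downstream of the TSS, and the Abca1 peaks lie 41.0 and 58.3 kb upstream and 45.5 kb downstream.

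Near and far peaks were then set side by side, with near meaning within 25 kb of the TSS. Near peaks lay at 6 of the 30 genes (20%) and at 5.24% of all protein-coding genes. Far peaks lay at 1 of the 30 genes (3.33%), Abca1, and at 2.99% of all genes, so the share with far peaks was close to that of genes in general. Of the 9 peaks 6 were near (66.7%, interval 29.9 to 92.5%), as were 61.7% of the 2124 assigned peaks. Near and far do not separate here from the gene, since the 3 far peaks are all at Abca1. Of the 6 near peaks 5 lay downstream of the TSS and 1, at Cyp51, lay upstream. Of all near peaks in the series 53.2% lay downstream. A count of 6 peaks is too small to set these shares apart, and the downstream peaks at Dhcr7 and Sc5d lay in copies of the same repeat. Within 10 kb there were 3 peaks, at Hsd17b7, Lrp8 and Sc5d.

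**Figure D4:**
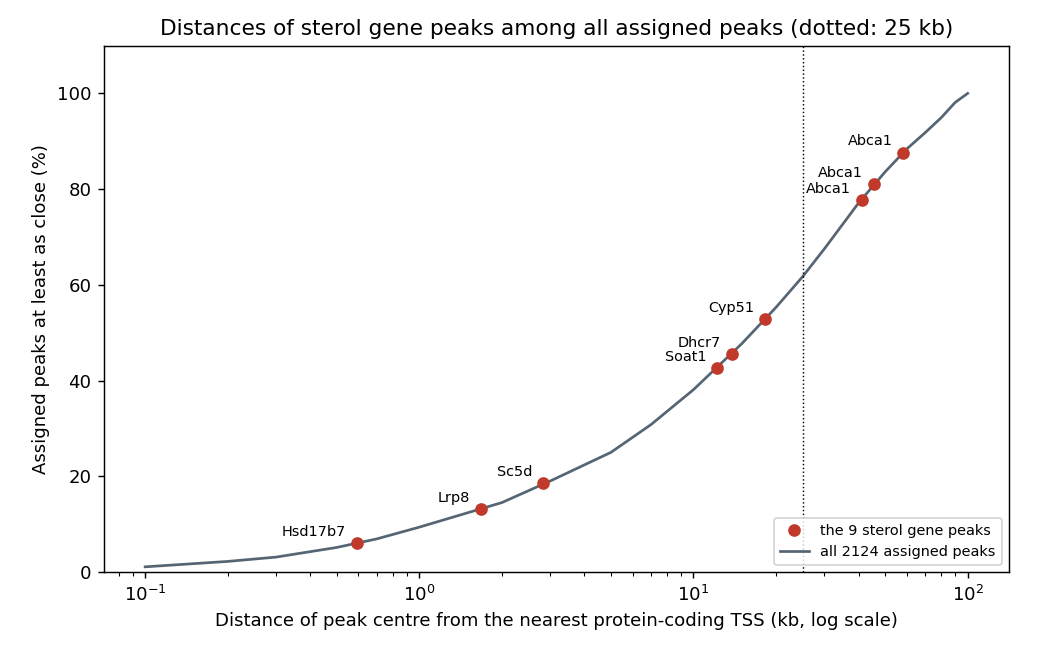
Red points place the 9 sterol gene peaks on the cumulative curve of all 2124 assigned peaks, with distance to the nearest protein-coding TSS in kb on a log axis and the percentage of assigned peaks at least as close on the vertical axis. The peaks run from Hsd17b7, at 6.03%, to the farthest Abca1 peak, at 87.6%.

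DR1 matches, with up to 2 mismatches allowed in the 12 fixed bases on either strand of the 200 bp around the centre, were present in 4 of the 9 peaks (44.4%, interval 13.7 to 78.8%). The share was 20.6% among all assigned peaks, which lies inside that interval, and 3.45% in windows 1 kb to either side of the 2537 peaks. The matches were at Hsd17b7, Dhcr7 and both upstream Abca1 peaks. Counted by gene, 3 of 30 sterol genes (10%) and 1.91% of all protein-coding genes had a peak with DR1. These shares include the difference in having any peak, 23.3% of the 30 genes and 7.68% of all genes. Far peaks had DR1 in 2 of 3 (interval 9.43 to 99.2%) and near peaks in 2 of 6 (interval 4.33 to 77.7%). Among all assigned peaks the shares were 18.9% of far and 21.7% of near peaks, which lie inside those intervals. The best match of each gene's peak is listed 5′ to 3′ on its own strand, with capitals for the whole repeat, to show how the sites grade from near consensus to none.
Hsd17b7, 1 mismatch, 25 bp from the centre: AGGTCAAGGGTCA
Abca1 at 58.3 kb, 2 mismatches, 13 bp: AGGTGAAAGGTAA
Abca1 at 41.0 kb, 2 mismatches, 19 bp: AGAGCAAAGGTCA
Dhcr7, 2 mismatches, 89 bp: AGGCCAAAGTTCA
Abca1 at 45.5 kb, 3 mismatches, 9 bp: AGGTCAAGGGTAG
Lrp8, 4 mismatches, 5 bp: TGTACAAAGGCCA
Sc5d, 4 mismatches, 12 bp: AGTTCAAATCCCA
Soat1, 5 mismatches, 2 bp: AGGTGAGCGTGAA
Cyp51, 5 mismatches, 5 bp: AGATCAGGATTTA

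The upstream Abca1 peak at 58.3 kb held a second match with 2 mismatches, 74 bp from the centre. The Dhcr7 match lay at the edge of the window and extended past the called peak, so that 3 of 9 peaks had DR1 within the peak interval itself. With 1 mismatch allowed Hsd17b7 alone remained. The Abca1 intron peak, with 3 mismatches, kept its first half-site intact, and 48.4% of all peaks have a best match of 3 or fewer mismatches, as do 18% of the windows 1 kb away. A best match of 4 or 5 mismatches, as at Lrp8, Sc5d, Soat1 and Cyp51, is found in 51.2% of all peaks and 80.9% of those windows.

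**Figure D5:**
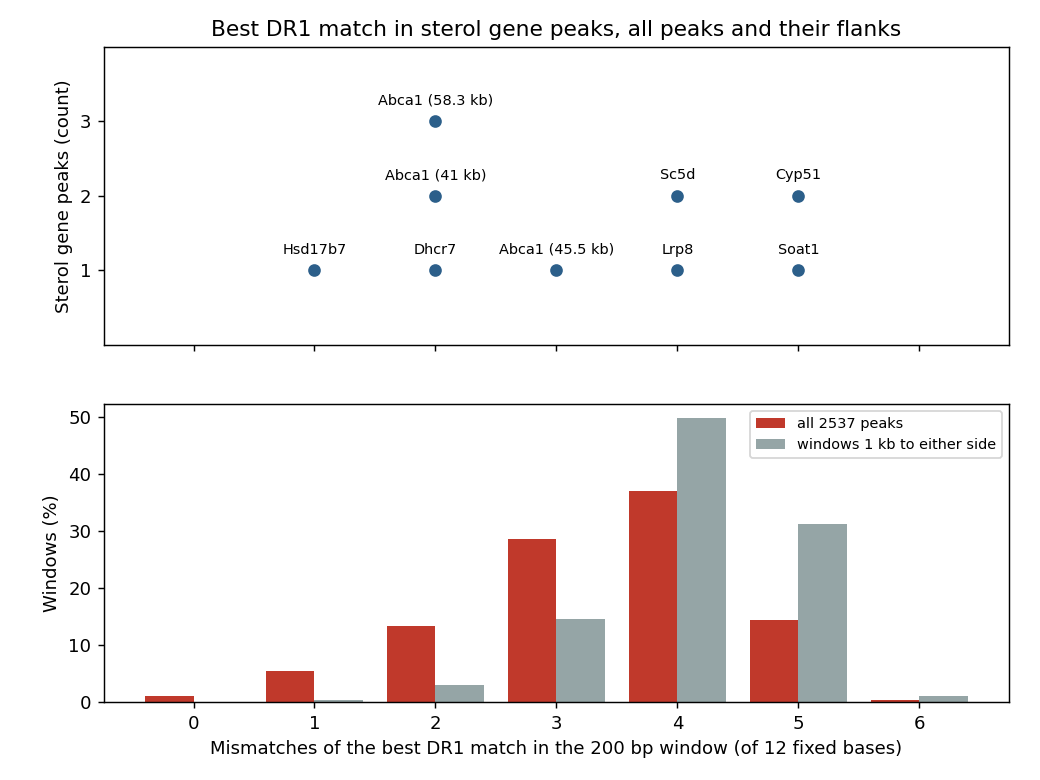
The upper panel places each of the 9 sterol gene peaks by the mismatches of its best DR1 match in 200 bp, and the lower panel gives the percentage of all 2537 peaks and of the windows 1 kb to either side at each number of mismatches. Hsd17b7 stands at 1 mismatch, which 5.44% of all peaks have, and Soat1 and Cyp51 at 5, which 14.3% have.

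Other elements were present at different genes. An exact half-site AGGTCA was present in 4 of 9 peaks, the 3 at Abca1 and that at Hsd17b7, and in 28.4% of assigned peaks. These half-sites are parts of longer matches, not separate elements. At Hsd17b7 and 41.0 kb upstream of Abca1 they lay in the DR1 match, and in the Abca1 intron in the best DR1 match. The half-site 58.3 kb upstream of Abca1 lay in the DR4 match given below. The AP-1 site TGACTCA, bound by the FOS and JUN factors of activated T cells, was present in 3 of 9, at Soat1, Dhcr7 and Cyp51, and in 17.8% of assigned peaks. The Cyp51 site lay 96 bp from the centre, outside the called peak. The Dhcr7 site lay inside the called peak, in the repeat copy described above. Dhcr7 had both AP-1 and DR1, and Lrp8 and Sc5d had neither. A DR4 match with up to 2 mismatches was present in 1 peak, that 58.3 kb upstream of Abca1, and in 2.64% of assigned peaks and 2.19% of the windows 1 kb away. It overlapped no DR1 match there. The sterol regulatory element as searched, TCACNCCAC, occurred in 0 of 9 peaks and in 0.942% of assigned peaks, and the GATA site AGATAA in 0 of 9 and 15.6%. A match describes these letters, and no match says only that they are not in the window.

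Further sterol genes, on a wider list of 48, had peaks about as often as genes in general: 4 had an assigned peak (8.33%, interval 2.32 to 20%), near the 7.68% of all protein-coding genes. Ch25h, which makes the oxysterol that restrains SREBP processing, had an intergenic peak 16.9 kb downstream. That peak held the exact DR1 consensus.
Ch25h, chr19:34458128-34458300, plus strand, capitals for DR1: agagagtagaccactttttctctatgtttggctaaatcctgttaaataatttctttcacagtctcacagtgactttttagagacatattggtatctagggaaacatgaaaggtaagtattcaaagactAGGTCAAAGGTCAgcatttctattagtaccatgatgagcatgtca
Lipa, the lysosomal lipase gene, was the next gene on one side, with its TSS 69.3 kb from that peak. Scarb1, the lipoprotein receptor SR-BI, had an intergenic peak 7.19 kb upstream with a DR1 match of 2 mismatches. Nceh1, a cholesteryl ester hydrolase gene, had an intergenic peak 6.96 kb upstream, and Mbtps1, the protease gene that makes the first cut in SREBP, had a peak in intron 2 at 10.3 kb; neither held DR1. The groups of uptake (0 of 4) and further synthesis enzymes (0 of 6) had none. Apobr, a lipoprotein receptor gene, lay 497 bp from a peak that was assigned to Cln3.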

How the data were processed

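The authors aligned reads to mm10 with Bowtie2 and called peaks with HOMER, per the submitters' processing notes, and kept uniquely mapped tags, per the series text. Tool versions are not given in the sources used here. The factor style was used, per the file headers, with a fragment length of 172 bp, a false discovery rate of 0.001, a minimum of 8 tags, and at least 4 times the input and the surrounding 10000 bp. The input removed 682 of 3239 putative peaks, and candidates with high input signal are therefore absent. The deposited score is 1 in every row and ranks no peak, so no stricter threshold could be set. No peak ran past a chromosome end of GRCm38, the same assembly as mm10, and coordinates count from 1.

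TSSs were those of protein-coding transcripts in the GENCODE vM21 basic set. Sequence and masking came from RefSeq GRCm38.p6. Promoters were 1000 bp upstream to 100 bp downstream of any annotated TSS. Motifs are spelled out where used and were searched on both strands; DR4 and DR1 may overlap. Local alignments (Biopython 1.88) scored 2 per match, -2 per mismatch, -4 to open a gap and -1 to extend it. Every member and every wider-list gene with a peak is named; both lists and the roles were chosen with earlier results of these data known. Assignment and motif search were tried on planted positions and sites. Alternatives covered assignment, annotation, DR1 rules and subsets of peaks. Python 3.11.15, numpy 2.4.6, pandas 2.3.3, scipy 1.17.1 and pysam 0.24.0 were used.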

Additional observations from a re-analysis of the deposited data

How the results depend on the processing

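Of the recomputed counts, 10 moved by more than 1.5 times and 44 by 1.5 times or less. The first 1268 rows of the file gave 3 sterol genes with a peak, 5 peaks and 1 synthesis gene; the last 1269 rows gave 4 genes, 4 peaks and 0 efflux genes. Without peaks centred in repeats, 2 synthesis genes had a peak. Near within 10 kb left 3 near peaks, and DR1 with 1 mismatch left 1 peak. Without Abca1 (chosen after seeing the data) 0 efflux genes had a peak. These follow from fewer peaks, genes or matches. With all annotated genes competing for the nearest TSS, 6 genes and 6 peaks remained, Soat1 had none and Abca1 had 1. With any member TSS within 100 kb, nearest or not, 9 genes and 11 peaks were counted, Mvd and Npc2 added. Both comprehensive annotations (chosen after seeing the data) gave 7 genes and 9 peaks. No stricter peak threshold was run, since peaks carry no strength. No paired analysis was possible because there is 1 ChIP library and 1 input library, with no replicates. The depth behind a single peak is unknown, so genes without an assigned peak are not shown to be unbound. Mvd and Npc2 had a called peak within 100 kb that was assigned to another gene. The other genes may hold sites below the authors' limit of detection, or sites that the input filter removed.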

Other observations

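The promoters of the sterol genes held the CCAAT motif more often than promoters in general. RefSeq promoter windows of GRCm38.p6, 250 bases before to 50 after a start, were matched for 23 of the 30 genes, and the 7 genes with a peak were all among them. The NFY site CCAAT, bound by the factor that acts beside SREBP at many sterol promoters, was present in a window of 19 of the 23 genes (82.6%), against 42.1% of 16515 protein-coding genes with a window. All 12 synthesis genes with a window held it. Some genes have several windows, and counted by window it was present in 20 of 35 (57.1%), against 37.8% of 20143 windows of protein-coding genes. In the PPARγ peaks of the 30 genes CCAAT was present in 3 of 9, and in 21.7% of assigned peaks. DR1 was present in 0 of 35 promoter windows and in 3.35% of windows of all protein-coding genes. The sterol regulatory element as searched was present in 1 window, that of Hmgcs1, and in 1.20% of all. These shares were not tested, and a match is a description of letters.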
